A study of Homo sapiens with 6 samples.

Results

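The messages of 44 genes for splicing regulators were followed through TGFβ treatment of Panc-1, an adherent cell line long established from a pancreatic adenocarcinoma of human origin. The genes were those whose symbols start with SRSF or HNRNP, together with ESRP1, RBFOX2, MBNL1, MBNL2, MBNL3, PTBP1, PTBP2, PTBP3, CELF1, CELF2, QKI, TRA2A and TRA2B. They were read through 182 of the 54613 probe sets of the array that are not controls, each annotated to only 1 gene. ESRP2, SRSF2, SRSF9 and HNRNPH2 were read only by probe sets that name several genes and are not reported here. The 21 HNRNP genes had 74 probe sets and the 10 SRSF genes had 43, and HNRNPA3P1, annotated as a pseudogene, and HNRNPD-DT, a noncoding transcript, came in with the HNRNP symbols. Of the 6 arrays, 3 were from cells given 5 ng/mL porcine TGFβ1 for 48 h, and the other 3 were from untreated cells, kept in plain medium per the study's methods. Both groups had first spent 24 h without serum. The study's methods give the dose in nM, so the sources differ on it and the unit of the labels is used. The experiment was repeated 3 times per the series' design, on a single line, and nothing says more on how far the cultures were separate, so p-values measure the spread between these arrays only.

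TGFβ is a cytokine that drives epithelial cells toward a motile mesenchymal state, the epithelial-mesenchymal transition (EMT), and the study asked which genes change in that state. Alternative splicing chooses which exons of a pre-mRNA are kept, and its regulators act by binding short RNA sequences near an exon. SR proteins (SRSF genes) mostly bind inside exons and favour their inclusion, whereas many hnRNP proteins (HNRNP genes) work against inclusion. ESRP, RBFOX, MBNL, PTBP, CELF and QKI proteins set the exon patterns of particular tissues, and changes in ESRP, RBFOX2 and QKI are known from EMT in other epithelial cells. Many SR and hnRNP genes also splice their own transcripts into forms that the cell degrades, so a message level is not a protein level. The array measures message near the 3′ end of transcripts and reports no exon inclusion.

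Signal was read as log2 units per probe set, and the array medians were 5.14 to 5.21. A probe set counted as measured where the mean signal of either group was at least 100 (6.64 in log2 units). This limit follows the filter of the study's methods. Of 7 ductal and epithelial markers on the array, 6 reached that level in untreated arrays (CDH1, EPCAM, KRT18, KRT7, KRT8 and SOX9). In TGFβ arrays 5 reached it. Their list summed to a signal of 6797 to 7041 in TGFβ arrays and 14130 to 14490 in untreated arrays. The paper nonetheless counts Panc-1 among the mesenchymal-like lines. Of EMT-related genes, VIM had an untreated mean of 13.92, CDH2 of 8.71 and ZEB1 of 8.18, so the untreated cells were not purely epithelial. Marker lists for immune, endothelial, fibroblast and stellate, acinar and islet, and red cell and liver cells had 0 genes at that level in either group. CDH1, the epithelial adhesion protein E-cadherin, had a log2 fold change of -2.02 (SE 0.11, adjusted p = 5.14e-05). Its TGFβ mean of 5.56 lay below the signal limit, so that a difference was favoured by the filter. As a sign of RNA quality, the 3′ minus 5′ log2 difference of the ACTB control probe sets was 0.335 ± 0.060 in TGFβ arrays and 0.554 ± 0.031 in untreated arrays (SD, n = 3 each), while that of GAPDH was -0.028 ± 0.023 in TGFβ arrays and -0.0096 ± 0.0096 in untreated arrays. The part of this difference in the results was not tested. In a culture read in bulk, fewer cells with a message and less message per cell cannot be told apart.

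Most splicing regulators were measured in Panc-1 cells, and their messages moved little. As gene means, MBNL1, MBNL2, QKI, TRA2A, SRSF4, SRSF11 and 9 HNRNP genes were lower with TGFβ. RBFOX2, PTBP2, PTBP3, CELF1, TRA2B, SRSF6, HNRNPL and HNRNPAB were higher. By the highest probe set alone, the sign turned for RBFOX2, PTBP3, CELF1, TRA2B, SRSF6 and TRA2A. RBFOX2 (-0.19, adjusted p = 0.0251) and SRSF6 (-0.21, adjusted p = 0.0349) were then lower by limma. Of 38 genes measured (each the mean of its measured probe sets), 23 changed by limma at an adjusted p under 0.05, 8 higher and 15 lower. Their share, 60.5%, stood beside 58.6% of all 10120 genes measured, with 27.6% of all genes higher and 31.0% lower. No member reached a 1.5-fold change as a gene, a size passed by 6.19% of all genes upward and 7.24% downward. The members' log2 fold changes ran from -0.58 for MBNL2 to 0.41 for PTBP2, with a median of -0.0745 against -0.0128 over all genes. In 29 of the 38 genes the TGFβ and untreated arrays did not overlap, TGFβ lying below in 18 and above in 11, and 68.2% of all genes were separated in this way. Without replicate 2, or without replicate 3, of both groups, 15 of the 38 member genes changed (39.5%), 3 of them higher, while the share of all genes was 42.4% without replicate 2 and 46.5% without replicate 3.

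**Figure D1:**
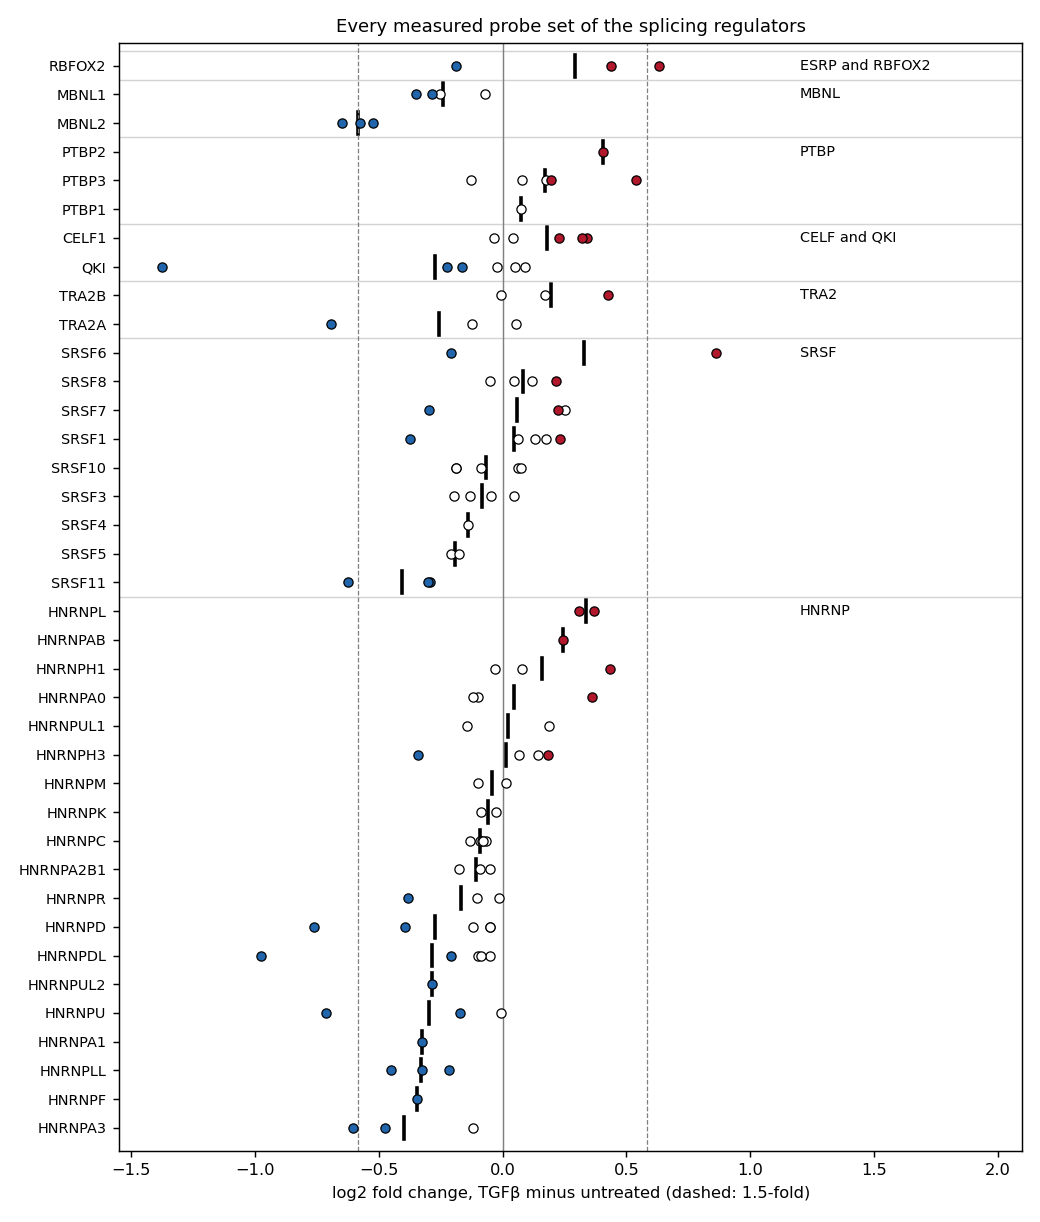
Log2 fold change, TGFβ minus untreated, of each measured probe set (points) of the 38 measured splicing regulators, with the mean of a gene's probe sets as a black bar. Red points were higher and blue points lower at an adjusted p under 0.05, open points did not pass, and dashed lines mark 1.5-fold. The points run from -1.38 for a QKI probe set to 0.86 for an SRSF6 probe set, and the points of 1 gene often lie far apart.

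By probe set, 52 of 115 changed (45.2%), 19 higher and 33 lower, against 55.1% of all 19115 measured probe sets. Changes of 1.5-fold or more were found in 10 of them, 2 higher (SRSF6 and RBFOX2) and 8 lower (1 each of QKI, HNRNPDL, HNRNPD, HNRNPU, TRA2A, MBNL2, SRSF11 and HNRNPA3). Over all 19115 measured probe sets, 1308 were higher and 1456 lower by that size, a larger share than among the members. The median log2 fold change of the 115 was -0.0835. In 6 of the 115, 1 each of HNRNPR, HNRNPU, PTBP3, SRSF11, SRSF6 and TRA2A, only the higher group reached the signal limit, so that a difference was favoured by the filter, and 5 of these were called. Among the 109 at the limit in both groups 47 were called, 17 higher and 30 lower. Without replicate 2 of both groups 32 of the 115 changed (27.8%, against 38.4% of all), and without replicate 1 the count was 60 (52.2%, against 61.1%).

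The 6 genes with no probe set at the signal limit were ESRP1, MBNL3, CELF2, SRSF12, HNRNPA3P1 and HNRNPD-DT. ESRP1, the epithelial splicing regulator, favours the epithelial isoforms of several receptor and adhesion genes. Its brighter probe set, 219121_s_at, read 5.03, 5.05 and 4.89 in TGFβ arrays and 4.96, 4.86 and 4.90 in untreated arrays. These values overlap and lie below the limit in every array of both groups. The other, 225846_at, read 4.21, 4.26 and 4.23 in TGFβ arrays and 4.31, 4.36 and 4.34 in untreated arrays, far below the limit but without overlap. When every probe set was tested, the log2 fold change of 219121_s_at was 0.085 (SE 0.076, adjusted p = 0.534), and that of 225846_at was -0.10 (adjusted p = 0.403). MBNL3 219814_at read 4.05, 3.91 and 4.03 in TGFβ arrays and 3.72, 3.91 and 4.04 in untreated arrays. CELF2 227178_at, the brightest of its probe sets, read 6.08, 6.02 and 6.17 in TGFβ arrays and 6.08, 6.22 and 6.01 in untreated arrays. In these 2 probe sets the groups overlapped, whereas CELF2 202157_s_at, with 4.46, 4.48 and 4.18 in TGFβ arrays and 4.59, 4.54 and 4.57 in untreated arrays, was separated. No probe set of the 6 genes passed the test, with adjusted p from 0.173 to 0.987.

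RBFOX2, a regulator that acts on exons from binding sites in the introns beside them, was higher as a gene mean, but its probe sets did not move together. 213901_x_at read 8.69, 8.81 and 8.67 in TGFβ arrays and 8.28, 8.27 and 7.72 in untreated arrays. 212104_s_at read 9.85, 9.83 and 9.74 in TGFβ arrays and 9.57, 9.48 and 9.07 in untreated arrays. In both, every TGFβ array lay above every untreated array and the untreated replicate 3 was the lowest of the 6. They rose by log2 fold changes of 0.63 (SE 0.11, adjusted p = 0.00390) and 0.44 (SE 0.086, adjusted p = 0.00672). The brightest probe set, 216215_s_at, went the other way, with 9.73, 9.73 and 9.69 in TGFβ arrays and 9.88, 9.89 and 9.95 in untreated arrays, again without overlap. It fell by 0.19 on the log2 scale (SE 0.057, adjusted p = 0.0314), a call lost without replicate 2 (adjusted p = 0.115), without replicate 3 (adjusted p = 0.196) and with arrays centred on their medians (adjusted p = 0.0789). The mean of the 3 probe sets gave a log2 fold change of 0.29 (SE 0.067, adjusted p = 0.0105), which was 0.21 (adjusted p = 0.0620) without replicate 3 and 0.12 (adjusted p = 0.0919) without the _x_at probe set, a class whose probes can match several transcripts. A direction for RBFOX2 as a whole therefore depended on which probe set was read.

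The muscleblind genes MBNL1 and MBNL2 were both lower with TGFβ. Muscleblind proteins promote or block exons by where they bind and are the proteins trapped by expanded repeats in myotonic dystrophy. MBNL2 203640_at, its brightest probe set, read 10.79, 10.67 and 10.65 in TGFβ arrays and 11.32, 11.30 and 11.44 in untreated arrays. The groups did not overlap, and the log2 fold change was -0.65 (SE 0.068, adjusted p = 0.000594). The other measured MBNL2 probe sets gave -0.57 (205018_s_at, SE 0.055) and -0.52 (205017_s_at, SE 0.073), and no pair of the 3 differed in response (adjusted p = 0.449 to 0.689). For 205017_s_at the groups overlapped by array, the untreated replicate 3 at 9.04 lying under the TGFβ replicate 2 at 9.07, while within each replicate number the TGFβ array was the lower. As a gene, MBNL2 had the lowest log2 fold change of all members, -0.58 (SE 0.048, adjusted p = 0.000201). Below the signal limit, MBNL2 1553536_at also fell when every probe set was tested (-0.65, SE 0.082, adjusted p = 0.00118).

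MBNL1 201153_s_at read 10.60, 10.66 and 10.67 in TGFβ arrays and 10.94, 11.00 and 11.05 in untreated arrays. The TGFβ arrays were all lower, by a log2 fold change of -0.35 (SE 0.054, adjusted p = 0.00251). 201152_s_at read 10.01, 10.07 and 10.06 in TGFβ arrays and 10.33, 10.33 and 10.33 in untreated arrays, a fall of -0.28 (adjusted p = 0.00588). The third, 201151_s_at, gave -0.25 and did not pass (SE 0.092, adjusted p = 0.0576). The fourth probe set, 1555594_a_at, gave -0.072 without passing (adjusted p = 0.352). It differed from 201153_s_at in response by 0.28 (SE 0.071, adjusted p = 0.0285). The gene mean was -0.24 (SE 0.053, adjusted p = 0.00944), and its adjusted p was 0.0527 without replicate 2 and 0.0751 without replicate 3. With every probe set tested, the MBNL1 gene mean was -0.13 (adjusted p = 0.120).

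PTBP proteins bind pyrimidine-rich RNA and mostly block exons, PTBP1 in most cells, PTBP2 chiefly in neurons and germ cells, and PTBP3 first described in blood cells. PTBP2 was read by 218683_at, at 7.68, 7.63 and 7.59 in TGFβ arrays and 7.09, 7.30 and 7.28 in untreated arrays. The arrays did not overlap, and PTBP2 had the highest log2 fold change of the member genes, 0.41 (SE 0.069, adjusted p = 0.00344 by gene). Its second probe set, below the signal limit, gave 0.47 (SE 0.089, adjusted p = 0.00768) when every probe set was tested. PTBP1 211270_x_at read 11.51, 11.44 and 11.45 in TGFβ arrays and 11.36, 11.36 and 11.46 in untreated arrays, which overlapped (0.076, SE 0.054, adjusted p = 0.274 by gene). A p above the threshold does not show that PTBP1 was the same in both groups.

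PTBP3 was higher as a gene (0.17, SE 0.050, adjusted p = 0.0274), a call that had an adjusted p of 0.115 without replicate 2, 0.0889 without replicate 3 and 0.0951 with arrays centred on their medians. With a signal limit of 200 the gene mean was 0.040 (adjusted p = 0.585). The increase lay in probe sets other than its brightest. 207223_s_at read 6.70, 6.87 and 6.83 in TGFβ arrays and 6.28, 6.28 and 6.23 in untreated arrays, a separation of 0.54 in log2 fold change (SE 0.063, adjusted p = 0.000891), though it reached the signal limit only through the TGFβ mean. The brightest, 224617_at, read 10.80, 10.67 and 10.69 in TGFβ arrays and 10.80, 10.82 and 10.93 in untreated arrays, which overlapped (-0.13, adjusted p = 0.148). These 2 probe sets differed in response by 0.67 (SE 0.099, adjusted p = 0.00437).

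**Figure D2:**
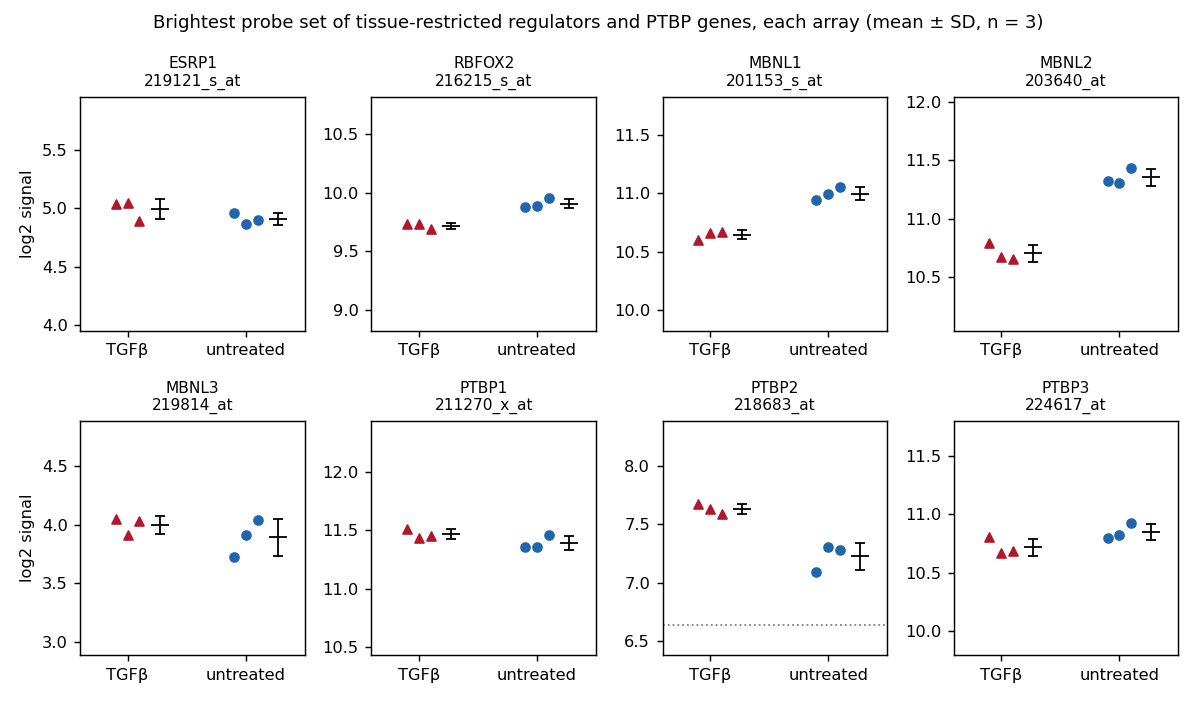
Log2 signal of the brightest probe set of ESRP1, RBFOX2 and the MBNL and PTBP genes on each array, TGFβ (red triangles) left of untreated (blue circles), with the mean and SD beside them (n = 3 each). The dotted line marks the signal limit where it falls inside a panel, and ESRP1 and MBNL3 lie wholly below it. MBNL1 and MBNL2 lie lower and PTBP2 higher in all 3 TGFβ arrays, while the groups overlap for PTBP1 and PTBP3.

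The promoters of MBNL1 and MBNL2, both lower as gene means, and of PTBP2 and PTBP3, both higher as gene means though PTBP3 less firmly, were searched for 2 short motifs linked with TGFβ signalling. SMAD proteins, which carry the TGFβ signal to DNA, bind CAGAC, which reads as GTCTG on the opposite strand. Repressors of the SNAI and ZEB families bind the E-box CAGGTG, which reads as CACCTG on the opposite strand. The windows are RefSeq promoters on GRCh38.p14, 250 bases before to 50 bases after the annotated start, and lie at chr3:152268679-152268978 on the plus strand for MBNL1, chr13:97141584-97141883 on the plus strand for MBNL2, chr1:96722388-96722687 on the plus strand for PTBP2 and chr9:112332977-112333276 on the minus strand for PTBP3. Each is printed 5′ to 3′ with its SMAD motif in capitals.
MBNL1: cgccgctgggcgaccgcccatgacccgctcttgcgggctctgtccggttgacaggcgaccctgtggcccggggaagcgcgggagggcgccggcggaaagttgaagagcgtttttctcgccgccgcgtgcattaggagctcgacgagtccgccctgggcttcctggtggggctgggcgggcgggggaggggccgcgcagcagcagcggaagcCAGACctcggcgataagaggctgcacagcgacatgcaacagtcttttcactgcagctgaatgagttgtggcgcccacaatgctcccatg
MBNL2: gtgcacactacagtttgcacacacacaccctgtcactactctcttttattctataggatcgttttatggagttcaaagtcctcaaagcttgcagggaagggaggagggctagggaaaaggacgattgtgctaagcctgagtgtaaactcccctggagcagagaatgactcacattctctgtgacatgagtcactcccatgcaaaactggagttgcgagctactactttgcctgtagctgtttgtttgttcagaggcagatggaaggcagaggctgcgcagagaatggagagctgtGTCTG
PTBP2: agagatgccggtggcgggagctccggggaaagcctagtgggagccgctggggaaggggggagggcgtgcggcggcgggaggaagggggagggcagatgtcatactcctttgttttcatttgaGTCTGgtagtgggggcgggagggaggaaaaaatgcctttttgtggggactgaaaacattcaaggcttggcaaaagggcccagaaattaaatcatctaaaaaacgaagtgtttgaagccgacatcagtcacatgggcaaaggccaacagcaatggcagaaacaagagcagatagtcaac
PTBP3: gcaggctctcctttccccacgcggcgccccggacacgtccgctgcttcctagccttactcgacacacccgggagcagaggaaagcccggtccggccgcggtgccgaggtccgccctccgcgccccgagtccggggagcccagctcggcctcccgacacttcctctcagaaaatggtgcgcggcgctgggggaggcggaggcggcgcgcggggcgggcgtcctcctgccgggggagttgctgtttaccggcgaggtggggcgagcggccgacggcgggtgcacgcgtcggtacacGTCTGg
Each of these 4 windows held 1 SMAD motif and 0 E-boxes, whether the gene was higher or lower. The windows of CELF1 and TRA2B, also higher as gene means, held 0 SMAD motifs and 0 E-boxes and are not printed. Of 38 measured genes, 34 had a window in the RefSeq table. A SMAD motif was found in 18 of them (52.9%), against 45.0% of 27305 promoters of that length, and in 3 of 7 windows of genes that rose, 6 of 12 of genes that fell and 9 of 15 of genes that did not pass. An E-box was found in 1 window (2.9%), that of HNRNPM, against 20.6% of all promoters. A match of these letters is a description of the window and does not show binding.

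QKI, a STAR-family protein that binds introns and mature messages and promotes circular RNAs, had 1 probe set that fell further than any other member's. QKI 212636_at read 8.66, 8.42 and 8.56 in TGFβ arrays and 9.80, 9.99 and 9.99 in untreated arrays. The groups were more than 1 log2 unit apart, and the log2 fold change was -1.38 (SE 0.090, adjusted p = 0.000112), 2.60-fold lower. The brightest probe set, 212265_at, read 11.79, 11.77 and 11.80 in TGFβ arrays and 11.93, 11.95 and 11.98 in untreated arrays, a small fall of -0.16 (SE 0.053, adjusted p = 0.0421). That call was lost without replicate 2 (adjusted p = 0.203) or replicate 3 (adjusted p = 0.185). The other 4 measured probe sets had log2 fold changes from -0.22 to 0.092. 212636_at differed in response from each of the 5 others, by 1.15 to 1.47 on the log2 scale (adjusted p = 0.000621 to 0.000751), and 8 of the gene's probe set pairs differed in all. Below the signal limit, 228540_at read 5.32, 5.38 and 5.46 in TGFβ arrays and 6.19, 6.07 and 6.24 in untreated arrays, and 236154_at read 4.02, 3.93 and 4.11 in TGFβ arrays and 4.67, 4.64 and 4.49 in untreated arrays. Both were separated between groups and fell when every probe set was tested, by 0.78 (adjusted p = 0.000307) and 0.58 (adjusted p = 0.00251) on the log2 scale. The gene mean was -0.27 (SE 0.049, adjusted p = 0.00412).

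**Figure D3:**
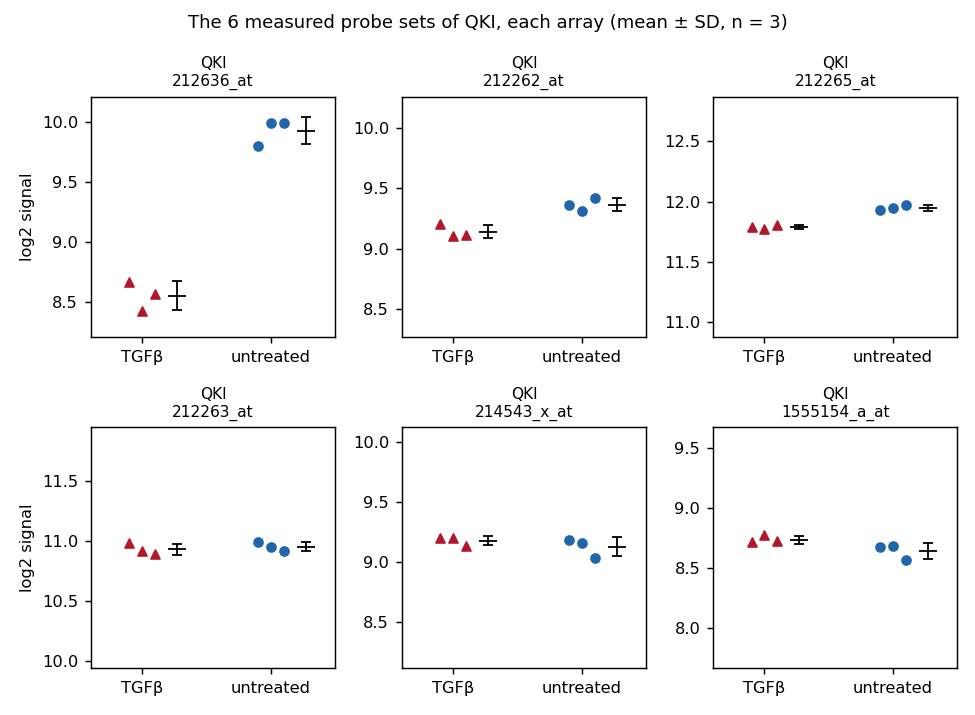
Log2 signal of the 6 measured QKI probe sets on each array, TGFβ (red triangles) left of untreated (blue circles), with mean and SD (n = 3 each). 212636_at lies at 8.42 to 8.66 in TGFβ arrays and 9.80 to 9.99 in untreated arrays, and no other QKI probe set shows a gap of that size.

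CELF1 opposes muscleblind proteins at many exons and also marks messages for decay. Its brightest probe set, 221743_at, read 11.48, 11.39 and 11.39 in TGFβ arrays and 11.44, 11.48 and 11.45 in untreated arrays, which overlapped (-0.033, adjusted p = 0.651). In contrast, 3 other probe sets rose, with log2 fold changes of 0.34 (1555467_a_at), 0.32 (204113_at) and 0.23 (221742_at). Without replicate 2 the adjusted p of 204113_at was 0.170 and that of 221742_at 0.114, and without replicate 3 they were 0.0812 and 0.0515. The gene mean of 0.18 (SE 0.051, adjusted p = 0.0234) was not past the threshold without replicate 2 (adjusted p = 0.168), without replicate 3 (adjusted p = 0.0804) or with arrays centred on their medians (adjusted p = 0.0742).

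TRA2A and TRA2B, human homologues of the fly sex-determination factor transformer-2, activate exons with purine-rich enhancers. In both, the brightest probe set overlapped between groups and another one moved. TRA2A 204658_at read 9.82, 9.98 and 10.04 in TGFβ arrays and 9.84, 9.88 and 9.96 in untreated arrays (0.053, adjusted p = 0.464). TRA2A 229574_at read 6.77, 6.88 and 6.95 in TGFβ arrays and 7.29, 7.72 and 7.69 in untreated arrays, a fall of -0.70 without overlap (SE 0.075, adjusted p = 0.000679). The difference between the pair was 0.75 (SE 0.099, adjusted p = 0.00314).

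TRA2B 200893_at read 12.00, 11.96 and 12.00 in TGFβ arrays and 11.99, 12.02 and 11.98 in untreated arrays (-0.0066, adjusted p = 0.928). TRA2B 210180_s_at read 8.24, 8.39 and 8.12 in TGFβ arrays and 7.89, 7.81 and 7.77 in untreated arrays, a rise of 0.43 without overlap (SE 0.068, adjusted p = 0.00300). Between these probe sets the response differed by -0.43, 200893_at minus 210180_s_at (SE 0.088, adjusted p = 0.0133). By gene mean TRA2A was lower (-0.26, adjusted p = 0.00517), though 0.053 (adjusted p = 0.389) with a signal limit of 200, which left out its dim probe sets, and TRA2B higher (0.20, SE 0.051, adjusted p = 0.0170), and the TRA2B call had an adjusted p of 0.133 without replicate 2 and 0.0710 without replicate 3.

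Among 9 measured SRSF genes, 3 passed the test, SRSF11 and SRSF4 lower and SRSF6 higher, a share of 33.3% against 58.6% of all genes. SRSF11, an SR-related protein, averaged 8.79, 8.73 and 8.70 over its 3 probe sets in TGFβ arrays and 9.18, 9.17 and 9.09 in untreated arrays. Its arrays were well apart, and the log2 fold change was -0.41 (SE 0.048, adjusted p = 0.000791). All 3 probe sets fell, 200685_at by 0.63, 213742_at by 0.30 and 200686_s_at by 0.29 on the log2 scale, though 213742_at reached the signal limit only through its untreated mean and had an adjusted p of 0.0844 without replicate 2. With a signal limit of 200, which left 213742_at out, the SRSF11 gene mean was -0.46 (adjusted p = 0.000642). SRSF4 was read by 1 measured probe set, at 10.08, 10.08 and 10.03 in TGFβ arrays and 10.21, 10.20 and 10.21 in untreated arrays. The arrays did not overlap, yet the gap was small (-0.14, SE 0.048, adjusted p = 0.0439), and the adjusted p was 0.158 without replicate 2, 0.238 without replicate 3 and 0.150 with arrays centred on their medians. The same array values had an adjusted p of 0.0658 in the test over probe sets and 0.0560 in that over the highest probe set of each gene, so the call depended on the features tested with it. An SRSF4 probe set below the signal limit, 242837_at, fell by 0.87 on the log2 scale when every probe set was tested (SE 0.13, adjusted p = 0.00254).

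SRSF6, an SR protein known as a regulator of wound healing and skin homeostasis in mice, averaged 8.67, 8.85 and 8.66 in TGFβ arrays and 8.59, 8.41 and 8.20 in untreated arrays (0.33, SE 0.084, adjusted p = 0.0168). The mean combined a probe set that rose with one that fell, and its adjusted p was 0.0884 without replicate 2 and 0.0620 without replicate 3. The rising one reached the signal limit only through its TGFβ mean, and with a limit of 200 SRSF6 was lower (-0.21, adjusted p = 0.0260). The remaining 6 SRSF genes, SRSF1, SRSF3, SRSF5, SRSF7, SRSF8 and SRSF10, had gene log2 fold changes from -0.19 (SRSF5) to 0.082 (SRSF8), none past the threshold. SRSF1, the founding SR protein, averaged 10.06, 10.07 and 10.02 in TGFβ arrays and 9.99, 10.03 and 10.00 in untreated arrays, which overlapped.

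More HNRNP genes were lower than higher. Of 19 measured, 9 fell and 2 rose, a share of 57.9% close to the 58.6% of all genes, with a median log2 fold change of -0.11. HNRNPA3, of the A/B group of hnRNP proteins, averaged 10.10, 10.03 and 10.08 in TGFβ arrays and 10.44, 10.47 and 10.51 in untreated arrays (-0.40, SE 0.050, adjusted p = 0.00102). HNRNPA1, a strong exon silencer of the same group, read 10.71, 10.90 and 10.78 in TGFβ arrays and 11.15, 11.20 and 11.02 in untreated arrays (-0.33, SE 0.059, adjusted p = 0.00427). Both genes were lower in each TGFβ array than in any untreated array. The measured HNRNPA1 probe set is of the _x_at class, and 2 HNRNPA1 probe sets below the signal limit gave 0.100 and 0.036 without passing (adjusted p = 0.758 and 0.926).

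HNRNPF, which binds runs of guanine, read 10.21, 10.07 and 10.03 in TGFβ arrays and 10.41, 10.49 and 10.44 in untreated arrays (-0.35, SE 0.062, adjusted p = 0.00403). HNRNPLL, known for setting CD45 isoforms in lymphocytes, averaged 8.87, 8.74 and 8.70 in TGFβ arrays and 9.10, 9.09 and 9.12 in untreated arrays (-0.33, SE 0.056, adjusted p = 0.00319), and all 3 of its probe sets fell. For 2 of these, 225385_s_at and 225386_s_at, the adjusted p was 0.115 and 0.0870 without replicate 2, and 0.157 and 0.0967 without replicate 3. HNRNPU, a nuclear scaffold protein, averaged 9.60, 9.59 and 9.58 in TGFβ arrays and 9.86, 9.86 and 9.94 in untreated arrays (-0.30, SE 0.051, adjusted p = 0.00336), though -0.089 (adjusted p = 0.188) with a signal limit of 200. None of the 3 genes overlapped between groups.

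HNRNPL, which binds CA repeats and is the close relative of HNRNPLL, moved the other way. It averaged 9.77, 9.97 and 9.91 in TGFβ arrays and 9.56, 9.51 and 9.55 in untreated arrays, a rise of 0.34 without overlap (SE 0.062, adjusted p = 0.00458). Both of its probe sets rose, 202072_at by 0.37 and 35201_at by 0.31, and 35201_at had an adjusted p of 0.0726 without replicate 2. HNRNPAB, an RNA-binding protein of the same broad family named after its values were seen as the other HNRNP gene that rose, read 12.59, 12.61 and 12.61 in TGFβ arrays and 12.36, 12.35 and 12.37 in untreated arrays (0.25, SE 0.048, adjusted p = 0.00564). Its arrays were tightly grouped, and the adjusted p was 0.0503 without replicate 2.

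The other HNRNP genes that fell were HNRNPUL2 (-0.29), HNRNPDL (-0.29), HNRNPD (-0.28) and HNRNPR (-0.17). HNRNPR was the weakest of these, with an adjusted p of 0.0347 that became 0.156 without replicate 2 and 0.219 without replicate 3, and a log2 fold change of -0.061 (adjusted p = 0.324) with a signal limit of 200. The 8 that did not pass were HNRNPA0, HNRNPA2B1, HNRNPC, HNRNPH1, HNRNPH3, HNRNPK, HNRNPM and HNRNPUL1, with log2 fold changes from -0.11 to 0.16. HNRNPC, which binds uridine tracts and guards against inclusion of Alu exons, had 5 probe sets between -0.13 and -0.066, all short of the threshold. HNRNPH1 had a rise in 1 of 3 probe sets (213470_s_at, 0.43, SE 0.083, adjusted p = 0.00619) and HNRNPA0 likewise (201055_s_at, 0.36, SE 0.065, adjusted p = 0.00470).

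Probe sets of the same gene often responded unequally. Of 154 pairs of measured probe sets within 31 member genes, 58 differed in response (37.7%, against 29.9% of 10596 such pairs over all genes), and 21 genes held at least 1 such pair. Without replicate 2 the count was 27 (17.5%, against 17.2% of all pairs), and without replicate 3 it was 31 (20.1%, against 16.7%). In 6 of the 154 pairs, from 5 genes, the probe sets were called in opposite directions. Over all genes this held for 391 of 10596 pairs (3.69%), a similar share, so opposite calls were not particular to these genes. SRSF6 206108_s_at read 7.30, 7.61 and 7.12 in TGFβ arrays and 6.79, 6.52 and 6.13 in untreated arrays, while 208804_s_at read 10.04, 10.10 and 10.19 in TGFβ arrays and 10.38, 10.30 and 10.27 in untreated arrays. The first rose by 0.86 (SE 0.11) and the second fell by 0.21 (SE 0.069) on the log2 scale, each without overlap, and they differed in response by 1.07 (SE 0.097, adjusted p = 0.00101). The rising probe set reached the signal limit only through its TGFβ mean (7.34, against 6.48 in untreated arrays). The fall of 208804_s_at was near the threshold (adjusted p = 0.0428) and was lost without replicate 1 (adjusted p = 0.0881), without replicate 2 (adjusted p = 0.146) and with arrays centred on their medians (adjusted p = 0.0535).

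SRSF1 201742_x_at read 11.27, 11.35 and 11.22 in TGFβ arrays and 11.11, 11.12 and 10.91 in untreated arrays. SRSF1 226419_s_at read 7.53, 7.57 and 7.60 in TGFβ arrays and 7.87, 7.94 and 8.02 in untreated arrays. Neither overlapped, and the responses of 0.23 and -0.38 differed by 0.61 (SE 0.078, adjusted p = 0.00283). HNRNPH3, of the guanine-run group, had 208990_s_at at 11.58, 11.48 and 11.49 in TGFβ arrays and 11.86, 11.88 and 11.82 in untreated arrays. Its 210110_x_at read 9.47, 9.56 and 9.43 in TGFβ arrays and 9.34, 9.28 and 9.29 in untreated arrays, and the difference, 208990_s_at minus 210110_x_at, was -0.52 (SE 0.082, adjusted p = 0.00534). In both genes the groups were apart in the falling and in the rising probe set. The rise of 201742_x_at alone had an adjusted p of 0.0910 without replicate 2 and 0.119 without replicate 3, and that of 210110_x_at 0.268 and 0.107.

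SRSF7, an SR protein with a zinc knuckle, had 201129_at at 9.77, 9.66 and 9.71 in TGFβ arrays and 10.03, 10.04 and 9.96 in untreated arrays. Its 214141_x_at read 12.34, 12.35 and 12.32 in TGFβ arrays and 12.14, 12.17 and 12.02 in untreated arrays. The arrays were separated in opposite directions, and the responses, 201129_at minus 214141_x_at, differed by -0.52 (SE 0.070, adjusted p = 0.00327). Without replicate 2 the adjusted p of 201129_at alone was 0.0606 and that of 214141_x_at 0.0690, and without replicate 3 that of 214141_x_at was 0.125. The RBFOX2 pairs differed by 0.82 (213901_x_at minus 216215_s_at, SE 0.13, adjusted p = 0.00583) and 0.63 (212104_s_at minus 216215_s_at, SE 0.11, adjusted p = 0.00809). Of the rising probe sets, those of SRSF1, HNRNPH3 and SRSF7 and 1 of RBFOX2 are of the _x_at class. Pairs with both members called in opposite directions numbered 0 without replicate 2, 1 without replicate 3, and 2 without probe sets of the _x_at class.

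**Figure D4:**
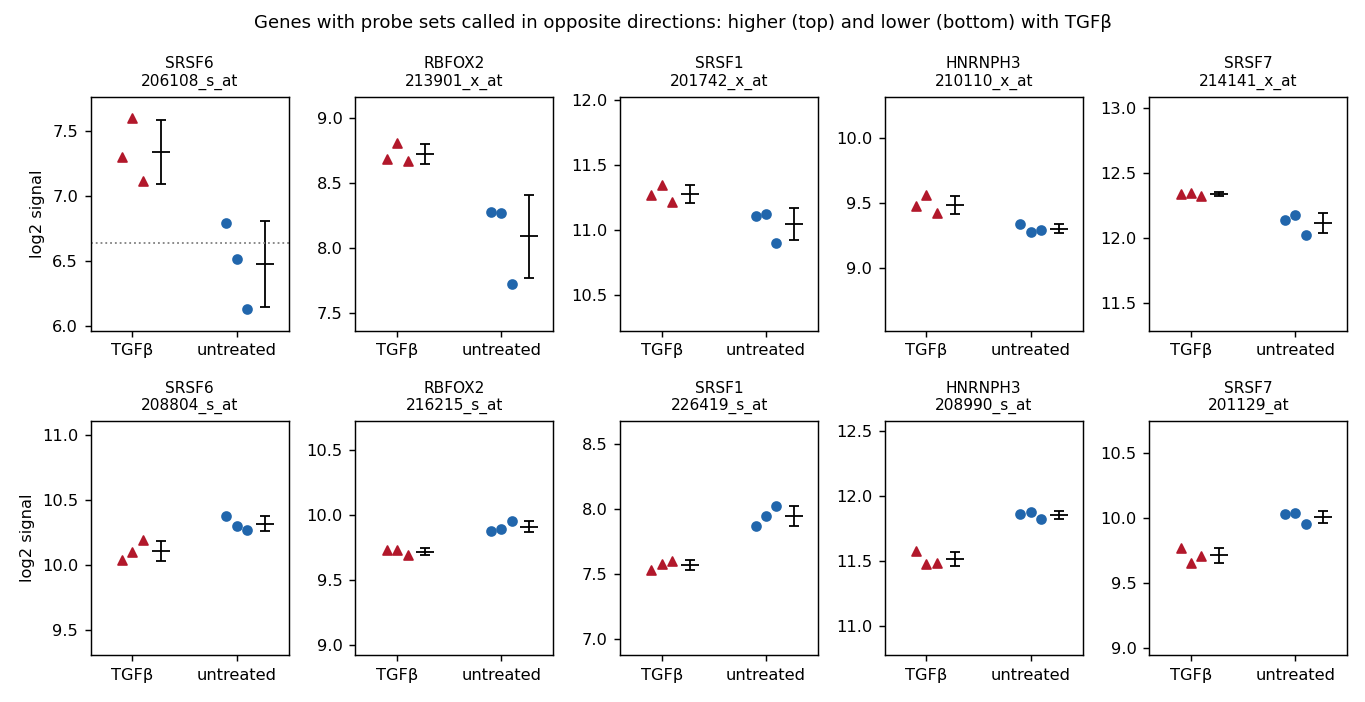
Log2 signal on each array for the 5 genes with probe sets called in opposite directions, the rising probe set above and the falling one below, TGFβ (red triangles) left of untreated (blue circles), with mean and SD (n = 3 each). In each of the 10 panels the groups do not overlap, and the dotted line in the SRSF6 panel is the signal limit of 6.64.

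In several other genes, named here after their values were seen, a probe set fell further than the brightest one of the gene. HNRNPDL, a paralogue of HNRNPD, had 209068_at at 7.75, 7.87 and 7.96 in TGFβ arrays and 8.83, 8.86 and 8.82 in untreated arrays (-0.98, SE 0.065, adjusted p = 0.000118). The brightest probe set of the gene, 209067_s_at, read 10.84, 10.70 and 10.73 in TGFβ arrays and 10.72, 10.94 and 10.88 in untreated arrays. The groups were separated in 209068_at and overlapped in 209067_s_at, and the responses differed by 0.89 (SE 0.11, adjusted p = 0.00257).

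HNRNPD, known as AUF1 for binding AU-rich elements of unstable messages, had 229129_at at 6.80, 6.71 and 6.65 in TGFβ arrays and 7.42, 7.48 and 7.55 in untreated arrays (-0.76, SE 0.071, adjusted p = 0.000398). Its brightest probe set, 221481_x_at, had a log2 fold change of -0.050, and the pair differed by 0.71 (SE 0.090, adjusted p = 0.00263). HNRNPU 225805_at read 6.62, 6.57 and 6.59 in TGFβ arrays and 7.30, 7.33 and 7.29 in untreated arrays (-0.72, SE 0.055, adjusted p = 0.000204), with no overlap, and reached the signal limit only through its untreated mean. It differed by 0.54 (SE 0.074, adjusted p = 0.00334) from the brightest, 200594_x_at, which was itself lower (-0.17), with an adjusted p of 0.139 without replicate 2 and 0.256 without replicate 3. HNRNPA3 211929_at fell by 0.61 on the log2 scale, and its response was below that of the brightest, 211932_at, by -0.49 (SE 0.10, adjusted p = 0.0157).

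The rest of the splicing machinery, on lists taken from general knowledge, was set beside these genes. Of 62 measured core spliceosome genes, 14 were higher and 11 lower, 40.3% in all, below the 58.6% of all genes measured. The largest changes were in AQR, an intron-binding helicase (-0.62, SE 0.051, adjusted p = 0.000202), SYF2 (-0.62, SE 0.056, adjusted p = 0.000299) and SLU7, a second-step factor (-0.52, SE 0.087, adjusted p = 0.00326). Of 58 other splicing regulators, 8 were higher and 16 lower (41.4%), also below the share of all genes. They were led by RBM4 (-0.84, SE 0.051, adjusted p = 6.68e-05), RBM47, an epithelial RNA-binding protein (-0.74, SE 0.059, adjusted p = 0.000180), and KHDRBS3, of the STAR family with QKI (0.60, SE 0.051, adjusted p = 0.000230). RBM4 and RBM47 lay below the signal limit in TGFβ arrays (means 6.46 and 6.35), so the filter favoured their falls.

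Of 9 measured genes on a list of SR protein kinases and nuclear import receptors, 2 were higher and 3 lower (55.6%). TNPO1, a nuclear import receptor, had a log2 fold change of 0.45 (SE 0.047), CLK4, a kinase of SR proteins, -0.42 (SE 0.048), and DYRK1A, a further such kinase, -0.31 (SE 0.048). Of 14 exon junction and decay genes, 3 were higher and 5 lower (57.1%), and the largest falls were in the decapping enzyme DCP2 (-0.75, SE 0.062), the exonuclease XRN1 (-0.67, SE 0.054) and DCP1A (-0.42, SE 0.050). Among 6 measured EMT genes, 3 were higher and 2 lower (83.3%). The remaining gene, ZEB1, did not pass (0.085, SE 0.053, adjusted p = 0.21), whereas the paper lists it as increased by TGFβ in Panc-1. The paper's value averages only probes past a threshold of change, while the value here averages every measured ZEB1 probe set. The reason for the difference in ZEB1 was not tested. SNAI1, a repressor of E-cadherin, read 7.18, 7.30 and 7.30 in TGFβ arrays and 5.996, 6.15 and 6.09 in untreated arrays (1.18, SE 0.048, adjusted p = 1.64e-05). TWIST2 read 6.04, 6.06 and 6.10 in TGFβ arrays and 7.54, 7.48 and 7.40 in untreated arrays (-1.41, SE 0.058, adjusted p = 1.74e-05). For both the groups were more than 1 log2 unit apart. However, SNAI1 in untreated arrays (mean 6.08) and TWIST2 in TGFβ arrays (mean 6.07) lay below the signal limit, so the filter favoured such gaps. They are therefore no measure for the splicing regulators. Of the 115 measured probe sets of those, QKI 212636_at alone had groups more than 1 log2 unit apart.

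**Figure D5:**
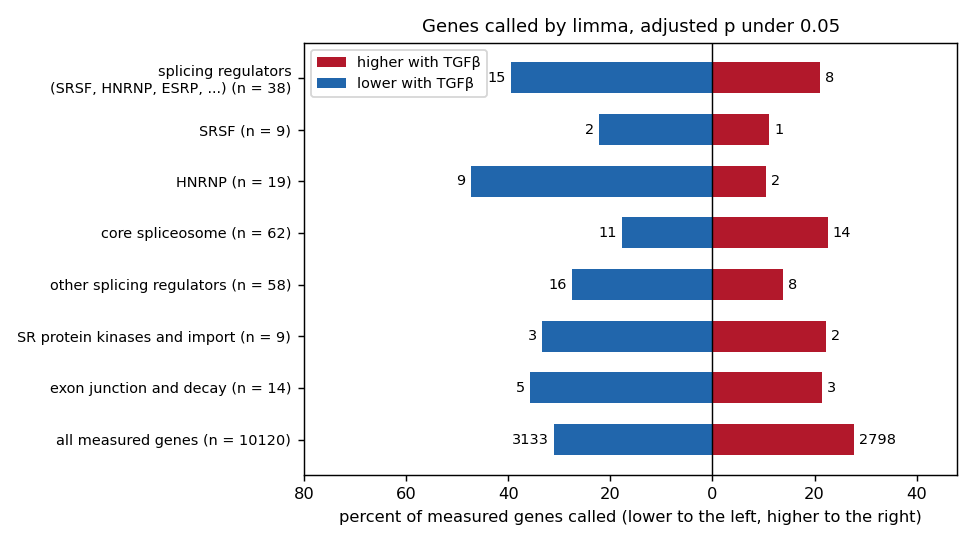
Share of measured genes called at an adjusted p under 0.05, lower with TGFβ to the left (blue) and higher to the right (red), for the splicing regulators, their 2 largest families, other lists and all measured genes, with the number of genes at each bar and the number measured as n. The HNRNP bar has 9 genes lower and 2 higher, the core spliceosome bar 11 lower and 14 higher, and the bar for all genes 3133 lower and 2798 higher.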

How the data were processed

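The authors deposited 1 log2 value per probe set and array (HG-U133 Plus 2.0, 54675 probe sets, 62 of them controls and left out). The scale was read from the values, and their summarization and normalization were not given in the sources used here. All 44 member genes matched RefSeq. Probe sets with a mean signal below 100 in both groups were dropped, and the rest that name the same single gene were averaged to a gene value.

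Differences, TGFβ minus untreated, were fitted with lmFit and eBayes of limma 3.58.1 (R 4.3.3, two-sided). The replicate number was a block, after the paired test of the study. This left 2 residual degrees of freedom, and the number of arrays limits the precision. P-values were Benjamini-Hochberg adjusted over all features. Pairs of probe sets of 1 gene were tested by fitting their difference on each array. The workflow was tested on simulated data. Alternatives covered the block, filter, normalization, added constant, variance model, probe set choice, left-out replicates, thresholds and the methods' t-test. Array values were given for the tissue-type regulators by brightest probe set, for called SRSF genes, for the 6 HNRNP genes with the largest changes and for oppositely called pairs, and 3 genes were named per further list. HNRNPAB and single probe sets of other genes were added after their values were seen. Members and lists were chosen with earlier results of these data known.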

Additional observations from a re-analysis of the deposited data

How the results depend on the processing

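With 3 arrays per group and changes mostly under 1.5-fold, the counts moved with the replicates used and with the number of features tested. Of 52 probe sets changed (19 higher, 33 lower), the count ran from 32 to 60 with 1 replicate number left out, and that of higher probe sets from 10 to 21. The lowest count was 27.8% of member probe sets against 38.4% of all, and the highest was 52.2% against 61.1%. The methods' t-test called 44 at an unadjusted p under 0.05 and 11 after Benjamini-Hochberg adjustment. These t-test counts are given without the share of all probe sets and so are not a result about the members. A 1.5-fold threshold left 10 of the 115, against 1308 higher and 1456 lower of all 19115 measured probe sets. Of 23 genes changed (8 higher, 15 lower), left-out replicates gave 15 to 23, with 3 to 8 higher, and a 1.5-fold threshold gave 0. The share of member genes was 39.5% without replicate 2 or replicate 3, against 42.4% and 46.5% of all genes. Without replicate 1 it was 60.5%, against 64% of all genes. Testing every probe set gave 14 genes (5 higher, 9 lower), all of them among the 23, with more features tested and dim probe sets in the gene means. That was 31.8% of 44 member genes, against 26.8% of all genes. Centring arrays on their medians gave 5 higher of 18 genes called (47.4% of members, against 51% of all genes). Reading each gene by its highest probe set gave 4 higher of 16 (42.1%, against 57.2%). The cause of these shifts was not tested.

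The choice of probe set turned the sign of 6 gene means. By the highest probe set, CELF1 was -0.033, RBFOX2 -0.19 (adjusted p = 0.0251), TRA2B -0.0066, PTBP3 -0.13, TRA2A 0.053 and SRSF6 -0.21 (adjusted p = 0.0349). A signal limit of 200 also gave TRA2A 0.053 and SRSF6 -0.21 (adjusted p = 0.0260), because their dim probe sets were then left out. By the highest probe set, HNRNPA3 (-0.12), HNRNPD (-0.050) and HNRNPDL (-0.088) no longer passed. With every probe set tested, HNRNPA1 was -0.064 and HNRNPUL2 -0.072, and with the limit of 200 HNRNPU was -0.089, none past the threshold. Pairs that differed in response numbered 58, and 27 to 63 with left-out replicates. The latter were 17.5% to 40.9% of members' pairs, against 16.7% to 36.2% of all pairs. When every probe set was tested, 92 of 390 members' pairs differed (23.6%, against 19% of all pairs). Pairs called in opposite directions numbered 6, and 0 to 8 with left-out replicates, 0 when every probe set was tested, 2 with median centring and 2 without _x_at probe sets. Each called probe set and gene was also recomputed under each alternative. Of these values, 67 for probe sets and 39 for genes lost the call with the direction kept. They count a result once per alternative and so are not numbers of probe sets or genes. Among the gene values, 227 kept the call and 8 changed sign. Pair differences were recomputed singly only for pairs chosen for their size or their opposite calls.

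Same-numbered arrays deviated from their group means with correlations of -0.241, 0.240 and 0.110, so the numbers were not shown to pair the samples. Without the replicate block 57 member probe sets (49.6%, against 57.9% of all), 24 genes (63.2%, against 61.9%) and 60 pairs (39%, against 30.4%) changed. Of these, 51, 23 and 56 were called with the block.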
